A study of Mus musculus with 12 samples.

Results

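The genes described here were the collagen genes outside the cartilage set: every gene symbol of the form Col, a number, the letter a and a number, without Col2a1, Col9a1, Col9a2, Col9a3 and Col11a2. This rule uses names only and found 39 of the 24391 gene symbols. Of these 39 genes, 37 passed a filter on low counts, which left 15958 genes in all. They were grouped into 9 fibrillar collagens, 6 basement membrane collagens, 6 FACITs (fibril-associated collagens with interrupted triple helices) and 18 others. The 2 genes that did not pass the filter were Col4a3 and Col10a1, with counts of 0 to 10 per library. The tissue was the palatal shelf, an outgrowth of the upper jaw that fuses with its counterpart to close the palate, of C57BL/6 mouse embryos at E13.5, and its RNA was sequenced. Each shelf was divided into an anterior and a posterior portion, and tissue came from untreated controls or from mice given tamoxifen, an oestrogen receptor modulator whose link to cleft palate is the subject of the series. This gave 4 groups of 3 libraries: control anterior, control posterior, tamoxifen anterior and tamoxifen posterior. All groups shared the strain and the age, and no transgene or mutant allele is named for any of them. Neither the dose nor the time of tamoxifen is stated in the labels. Nothing there says whether the 3 libraries of a group came from separate embryos, litters or pools, so p-values measure only the spread between these samples.

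Collagens are proteins of the extracellular matrix built from chains wound into a triple helix. Fibrillar collagens, mainly types I, III and V, form the tensile fibrils of mesenchyme and bone, and FACITs sit on the surface of those fibrils. Type IV chains form the sheet of the basement membrane under epithelium and around vessels and muscle fibres. The other collagens include the beaded filaments of type VI, the anchoring fibrils of type VII, the short-chain networks of type VIII, the multiplexins and the transmembrane collagens. In the palate, collagen-rich mesenchyme fills the shelves, bone later forms in the hard palate, and muscle forms in the soft palate behind it.

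Library totals lay between 39384932 and 73017438 counts, the next highest being 50163320, and the collagen genes took 1.56 to 3.19% of them. In every library 57.1 to 60.1% of the counts between 1 and 100 were even numbers. Levels below are CPM, that is counts brought to 1 library size by the TMM method (trimmed mean of M values), and CPM per kilobase of transcript wherever genes are set against each other. Markers of palatal mesenchyme summed to between 2732 and 3573 CPM over all 12 libraries, with all 10 of them above 1 CPM. Markers of other tissues differed between the portions. In controls, 12 skeletal muscle markers summed to 13.0 to 35.1 CPM anteriorly, where 1 of them was at 0, and to 771 to 884 CPM posteriorly. The 10 cartilage markers summed to 229 to 242 against 485 to 516 CPM, the 10 bone markers to 698 to 768 against 492 to 605 CPM, and the 12 epithelial markers to 1019 to 1268 against 601 to 667 CPM. In bulk tissue, fewer cells of a type and less RNA per cell cannot be told apart, and the part of tissue composition in the collagen differences was not tested.

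Collagen chains that assemble together often lie side by side in the genome, and the starts of the neighbouring pairs of type IV chains are described first because the balance within each pair is given below. Sequences are printed for the X-linked pair. Col4a1 and Col4a2 are transcribed away from each other on chromosome 8, and their annotated starts overlap by 22 bases (GRCm38.p6, chr8:11312805-11312826, plus strand). Col4a6 and Col4a5 are likewise transcribed away from each other on chromosome X, with 1342 bases between their starts. The stretches printed lie before each gene's RefSeq start, on the strand of the gene, for Col4a6 at chrX:141474077-141474226 (minus strand) and for Col4a5 at chrX:141475235-141475384 (plus strand). The latter ends 34 bases before the start so that it holds no exon. Capitals mark the GC box GGGCGG or its reverse complement CCGCCC. Col4a5 also has a GC box, at -30 to -25 from its start, which lies in the 34 bases left out and so is not printed.
Col4a6: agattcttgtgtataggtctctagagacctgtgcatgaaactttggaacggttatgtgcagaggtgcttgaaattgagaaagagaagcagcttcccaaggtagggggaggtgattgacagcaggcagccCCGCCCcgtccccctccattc
Col4a5: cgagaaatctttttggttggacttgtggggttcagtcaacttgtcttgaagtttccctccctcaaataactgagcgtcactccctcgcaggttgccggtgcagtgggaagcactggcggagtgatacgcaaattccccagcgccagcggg
Promoters of 4 other genes are shown as examples of the directions described below: Col25a1 (chr3:130180695-130180844, plus strand) and Col8a1 (chr16:57754738-57754887, minus strand), which were higher posteriorly and rose with tamoxifen, Col17a1 (chr19:47692095-47692244, minus strand, ending 52 bases before its start), which was higher anteriorly, and Col3a1 (chr1:45311388-45311537, plus strand) of the abundant fibrillar set. They were chosen after the values were seen. Capitals mark the GC box in Col25a1 and Col8a1 and the TATA box TATAAA in Col17a1 and Col3a1.
Col25a1: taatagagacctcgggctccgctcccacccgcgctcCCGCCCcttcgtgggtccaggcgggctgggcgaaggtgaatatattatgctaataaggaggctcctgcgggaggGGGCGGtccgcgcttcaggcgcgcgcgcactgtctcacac
Col8a1: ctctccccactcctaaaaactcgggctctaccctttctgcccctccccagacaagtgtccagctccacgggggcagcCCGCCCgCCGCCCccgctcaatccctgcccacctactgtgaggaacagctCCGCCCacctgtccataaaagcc
Col17a1: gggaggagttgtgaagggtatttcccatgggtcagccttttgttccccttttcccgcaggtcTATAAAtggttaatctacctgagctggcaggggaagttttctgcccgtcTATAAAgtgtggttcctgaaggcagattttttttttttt
Col3a1: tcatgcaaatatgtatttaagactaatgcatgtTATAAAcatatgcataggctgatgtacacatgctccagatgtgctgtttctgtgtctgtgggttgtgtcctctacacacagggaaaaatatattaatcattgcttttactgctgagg
Over the 250 bases before the RefSeq start, on both strands, 32 of the 39 collagen genes had a window (34 windows). GGGCGG was found in 58.8% of the collagen windows and in 32.7% of all 32851 windows. TATAAA was found in 11.8% against 12.4%, CCAAT in 35.3% against 33.8%, and the AP-1 motif TGANTCA in 2.94% against 6.75%. The consensus oestrogen response element, GGTCA and its reverse complement 3 bases apart, was in 0 collagen windows and in 0.0639% of all windows. None of these motifs contains another, and a match is a description of the sequence only.

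By level per length, fibrillar collagens made up most of the collagen RNA in every group. Their summed level was 2033 ± 56.0 CPM per kb in the control anterior and 3461 ± 207 in the control posterior portion (mean ± SD, n = 3). The FACITs stood at 85.1 ± 1.57 anteriorly and 185 ± 5.59 CPM per kb posteriorly. Both classes were therefore higher in each of the 3 posterior control libraries than in any anterior control library. The basement membrane collagens stood at 216 ± 8.83 and 259 ± 6.13 CPM per kb, and the other collagens at 829 ± 50.4 and 1002 ± 33.6. In these classes too every posterior control library lay above every anterior one. Under tamoxifen the fibrillar sum was 2116 ± 343 CPM per kb anteriorly and 3400 ± 774 posteriorly. These fibrillar means lay close to those of the controls, and the spread between libraries was wider. The basement membrane sum was 252 ± 4.73 CPM per kb anteriorly, with every library above every anterior control library, and 272 ± 39.5 posteriorly. The FACIT sums were 89.1 ± 25.1 and 186 ± 40.7 CPM per kb, and those of the other collagens 747 ± 102 and 960 ± 132. These overlapped the controls of the same portion, as did the posterior basement membrane sum. Col1a1, Col1a2 and Col3a1, the chains of types I and III, together held 56.7 ± 0.63% of collagen CPM per kb in the control anterior and 63.2 ± 1.10% in the control posterior portion. The corresponding shares under tamoxifen were 56.9 ± 1.31% and 61.9 ± 2.20%.

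**Figure D1:**
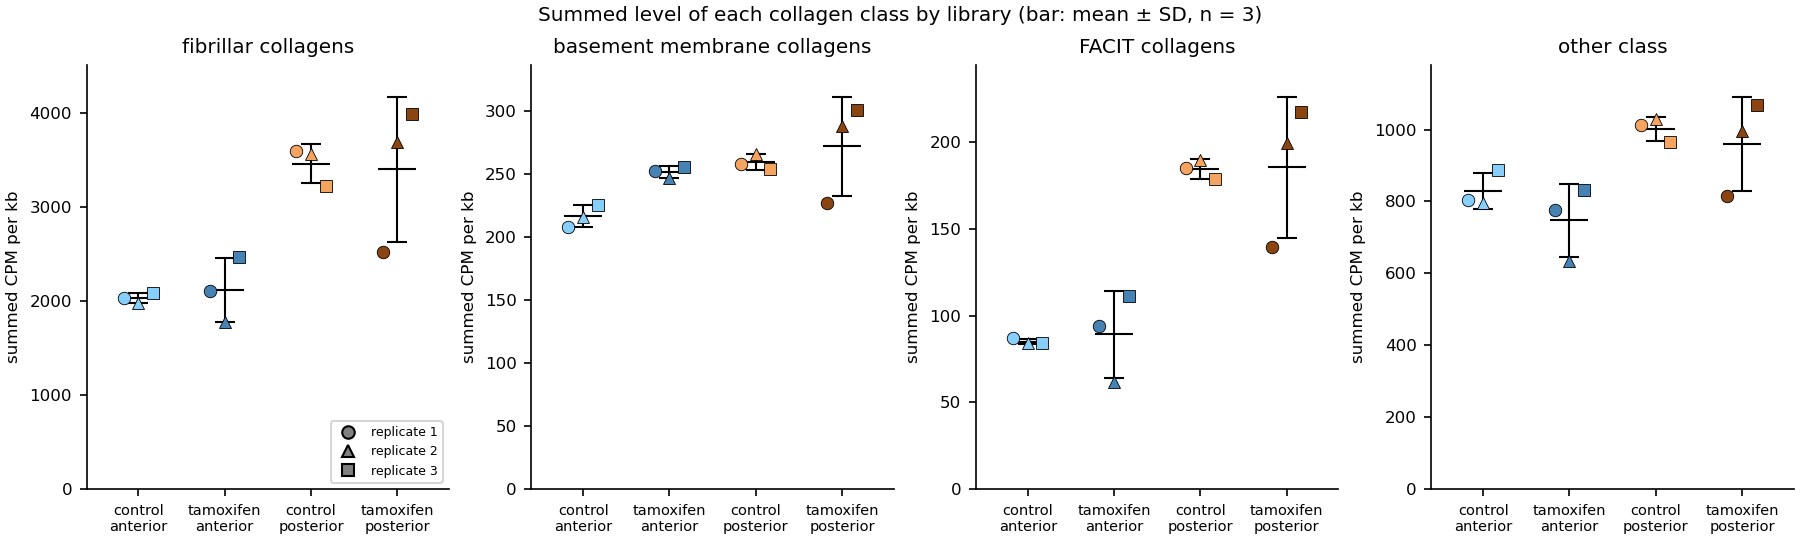
Summed level of each collagen class in CPM per kb of transcript (vertical axes, from 0) for the 4 groups (horizontal axes). Points are libraries and bars the mean ± SD (n = 3), and the fibrillar mean was 2033 in the control anterior and 3461 CPM per kb in the control posterior portion.

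The comparison of the anterior with the posterior portion in controls asked how the shelf's collagens differ along its length. Of 37 collagen genes tested, 5 were higher and 21 lower anteriorly at an adjusted p under 0.05 (edgeR quasi-likelihood test, Benjamini-Hochberg over all 15958 genes), where 10.2% of all genes were higher and 13.1% lower (23.3% called in all). The median log2 fold change, anterior minus posterior, was -0.47 over the collagen genes and 0.02 over all genes. By class, 0 fibrillar genes were higher and 8 of 9 lower, 0 FACITs higher and 5 of 6 lower, 1 basement membrane gene higher and 2 lower of 5, and 4 others higher and 6 lower of 17. With the trend of each library with transcript length and GC content removed, 5 were higher and 20 lower, against 27.0% of all genes called. Overlap between groups is stated below mostly for genes called on these same libraries, so it describes them and adds no support. The share of all genes without overlap is not given.

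Among the fibrillar genes, Col1a1, the major chain of type I collagen of bone and mesenchyme, stood at 3622, 3759 and 4101 CPM in the control anterior libraries and at 9359, 8292 and 7353 CPM in the control posterior ones. The ranges did not overlap, and Col1a1 was 2.18-fold lower anteriorly (log2 fold change -1.12, SE 0.31, adjusted p = 0.0285). Its partner Col1a2 stood at 3296, 3095 and 3259 against 4958, 4880 and 4315 CPM, 1.47-fold lower (log2 -0.55, SE 0.12, adjusted p = 0.00294). Col3a1, which forms fibrils with type I in soft tissue, stood at 3165, 2951 and 3021 against 4112, 4923 and 4556 CPM, 1.49-fold lower (log2 -0.57, SE 0.10, adjusted p = 0.000412). All 3 anterior libraries lay below all 3 posterior ones in each of these genes. Col11a1, a chain of type XI that is incorporated into type I and type II fibrils, gave 135, 137 and 121 CPM anteriorly and 345, 368 and 365 CPM posteriorly. It was 2.74-fold lower anteriorly with no overlap (log2 -1.45, SE 0.11, adjusted p = 5.31e-08). Col24a1, a fibrillar collagen described in bone and cornea, stood at 9.29, 10.3 and 7.54 against 33.5, 34.0 and 36.7 CPM. It showed the largest fibrillar difference of this comparison, 3.84-fold (log2 -1.94, SE 0.15, adjusted p = 6.35e-08). Col5a1, Col5a2 and Col5a3, the type V chains that set fibril diameter, were 1.53-fold, 1.24-fold and 2.08-fold lower anteriorly. Col27a1 did not pass the test (log2 -0.10, SE 0.10, adjusted p = 0.513).

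The FACITs, which coat fibrils, moved with the fibrillar genes. Col12a1, found in tendon, ligament and the connective tissue of muscle, stood at 236, 236 and 190.0 CPM anteriorly and 819.6, 1037 and 829 CPM posteriorly. It was 4.05-fold lower anteriorly, with no overlap (log2 -2.02, SE 0.36, adjusted p = 0.00377). Col14a1, Col16a1 and Col20a1 were 1.65-fold, 1.63-fold and 1.37-fold lower. Col19a1, a rare FACIT known from differentiating muscle and from neurons, gave 2 to 6 counts per anterior and 28 to 51 counts per posterior control library. Its fitted difference was 8.80-fold (log2 -3.14, SE 0.50, adjusted p = 0.000185), from levels of about 0.0961 and 0.873 CPM. Col22a1, a collagen of tissue junctions such as that of muscle and tendon, did not pass the test, at 6.58 ± 0.36 and 6.88 ± 2.15 CPM.

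Within the class of other collagens the direction depended on the gene. Col25a1, a transmembrane collagen needed for motor innervation of muscle, stood at 31.7, 27.2 and 21.6 CPM anteriorly and 137, 152 and 140.3 CPM posteriorly. The 5.34-fold difference was larger than that of any other gene above 5 CPM in the set (log2 -2.42, SE 0.14, adjusted p = 6.03e-09). Col8a1, a short-chain network collagen, stood at 104, 75.1 and 78.7 against 255, 269 and 236 CPM, 2.95-fold lower anteriorly (log2 -1.56, SE 0.11, adjusted p = 2.30e-08). Of the type VI chains, which form beaded filaments, Col6a3 stood at 379, 415 and 366 against 770.0, 1007 and 817 CPM, 2.24-fold lower anteriorly (log2 -1.16, SE 0.21, adjusted p = 0.00191). Col6a6 stood at 4.26, 4.62 and 3.82 against 10.1, 12.2 and 11.4 CPM, 2.65-fold lower (log2 -1.41, SE 0.12, adjusted p = 2.56e-07). In all 4 of these genes the portions did not overlap. Col6a1 and Col6a2, the partners of Col6a3 in the main type VI trimer, did not pass the test (log2 -0.16, adjusted p = 0.326, and log2 -0.13, adjusted p = 0.536). Col15a1, a multiplexin of basement membrane zones, was 1.46-fold and Col8a2 1.39-fold lower anteriorly.

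The 5 genes higher anteriorly were Col6a4, Col17a1, Col7a1, Col4a6 and Col18a1. Col17a1, the transmembrane collagen of hemidesmosomes that anchors basal keratinocytes, stood at 74.1, 96.9 and 77.7 CPM anteriorly against 40.7, 47.8 and 43.0 CPM posteriorly, 1.89-fold higher (adjusted p = 0.00102). Col7a1, which forms the anchoring fibrils beneath the epidermal basement membrane, stood at 92.7, 95.1 and 98.0 against 59.8, 64.6 and 64.0 CPM, 1.52-fold higher (adjusted p = 0.000652). Col6a4 was 2.16-fold, Col4a6 1.51-fold and Col18a1, whose C-terminal fragment is endostatin, 1.26-fold higher. In each of the 5 genes every anterior control library lay above every posterior one, but the genes were named because they passed the test on these same libraries. Of the 12 epithelial markers, 8 were higher and 0 lower in the same comparison, and the part of the epithelial markers in these 5 differences was not tested. Skeletal muscle markers gave 0 higher and 11 lower of 11 tested and cartilage markers 0 higher and 8 lower of 10, in the direction of the 21 collagen genes that were lower. Smooth muscle and pericyte markers gave 5 higher and 1 lower of 10, palatal mesenchyme markers 4 and 5 of 10, bone markers 2 and 1 of 9, neuron and Schwann cell markers 1 and 2 of 12, endothelial markers 1 and 1 of 10 and macrophage markers 0 and 1 of 11. Over all genes 10.2% were higher and 13.1% lower in this comparison. The part of these markers in the 21 differences was not tested either. The cartilage collagen Col2a1, outside the set, was 5.13-fold lower anteriorly.

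The major type IV chains, Col4a1 and Col4a2, differed little between the portions. Col4a1 stood at 729.9, 776 and 786 CPM anteriorly and 902, 924 and 892 CPM posteriorly, 1.19-fold lower (log2 -0.25, SE 0.08, adjusted p = 0.0438). Col4a2 stood at 593, 601 and 652 against 749.7, 771 and 726 CPM and just missed the threshold (log2 -0.28, SE 0.10, adjusted p = 0.0544). Neither gene's portions overlapped. The minor pair split: Col4a6 was higher anteriorly, and Col4a5, the chain mutated in X-linked Alport syndrome, was 1.31-fold lower (log2 -0.39, SE 0.09, adjusted p = 0.00429). Of the 26 calls, 6 were lost when 1 of the 12 libraries was left out: Col1a1, Col5a2, Col4a1, Col20a1, Col8a2 and Col18a1, each under 2 to 9 of the 12 omissions, with adjusted p from 0.0508 to 0.146. The removal of the length and GC trend also ended the calls of Col5a2 (log2 -0.16, adjusted p = 0.155), Col4a1 (log2 -0.11, adjusted p = 0.196) and Col20a1 (log2 -0.38, adjusted p = 0.0855), and with the replicate block added that of Col4a5 (log2 -0.24, adjusted p = 0.0573). Under all alternatives together 19 of the 26 calls held, and the count of lower genes ranged from 16 (without control anterior replicate 2) to 23 (without tamoxifen anterior replicate 2).

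**Figure D2:**
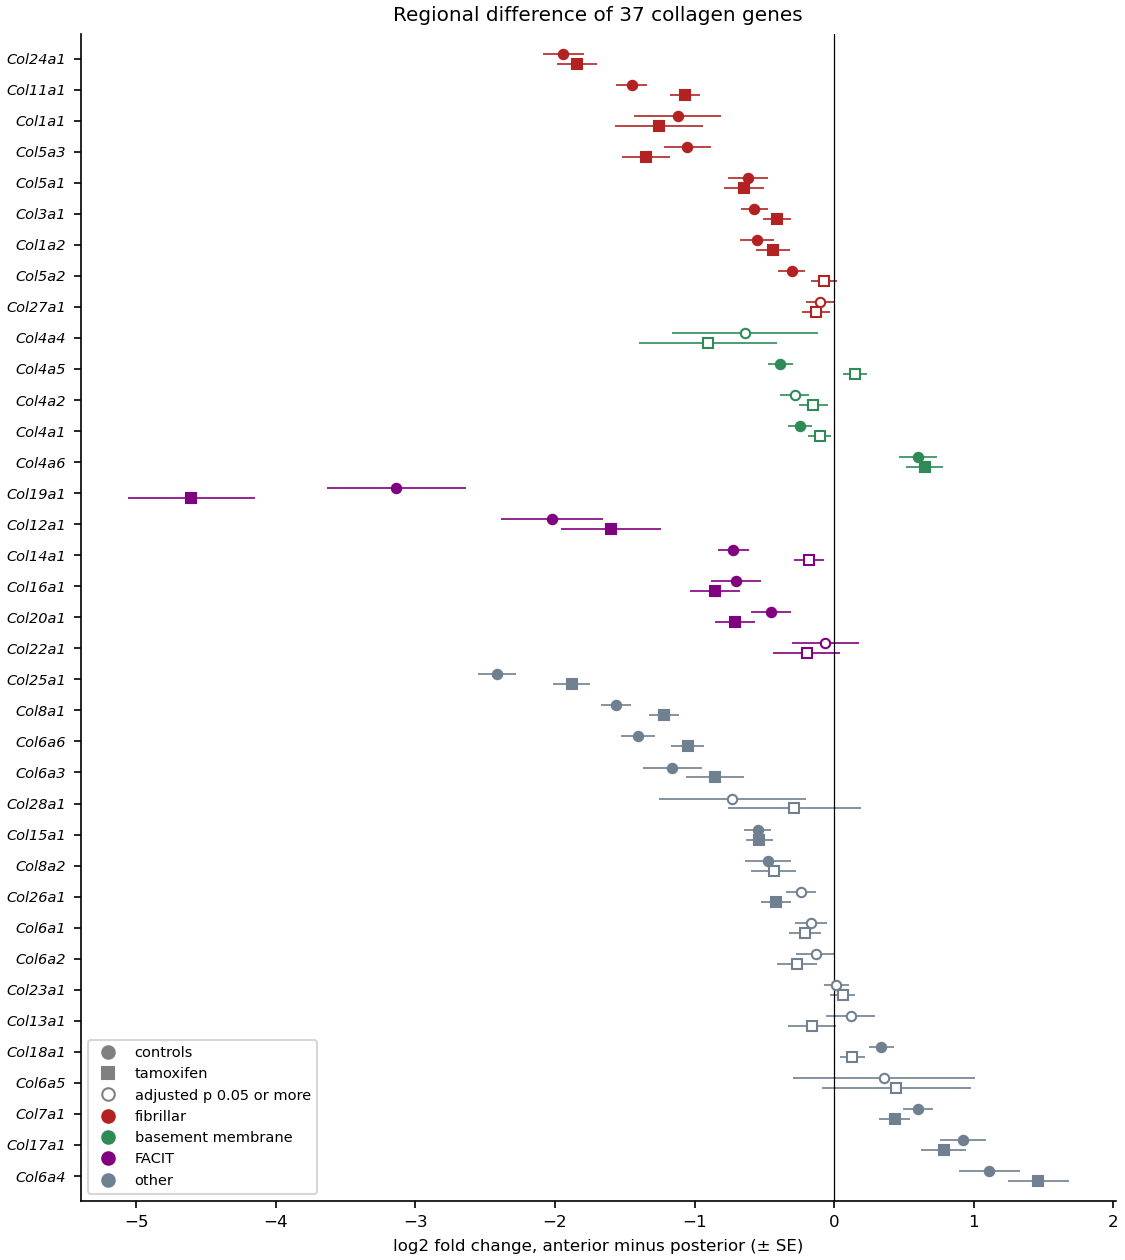
Log2 fold change, anterior minus posterior, with its SE (horizontal axis) for the 37 collagen genes tested, in controls (circles) and under tamoxifen (squares), coloured by class. Open symbols have an adjusted p of 0.05 or more, and most filled symbols of the fibrillar and FACIT genes lie left of 0.

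Under tamoxifen the same comparison gave 4 collagen genes higher and 17 lower anteriorly, where 7.60% of all genes were higher and 10.2% lower (17.8% called). By class, 7 fibrillar genes, 4 FACITs and 6 others were lower, and 1 basement membrane gene and 3 others were higher. The median log2 fold change was -0.41 over the collagen genes. After removal of the length and GC trend, 5 were higher and 17 lower, against 23.5% of all genes called. Col25a1 stood at 56.9, 68.1 and 46.8 CPM anteriorly and 199, 224 and 209.98 CPM posteriorly, 3.68-fold lower (log2 -1.88, SE 0.13, adjusted p = 4.35e-08). Col24a1 stood at 10.3, 10.1 and 15.0 against 37.8, 43.5 and 45.4 CPM, 3.58-fold lower (log2 -1.84, SE 0.14, adjusted p = 7.46e-08). The portions did not overlap in either gene. Col12a1 stood at 354, 179.9 and 521 against 739, 1135 and 1320.1 CPM, 3.03-fold lower (log2 -1.60, SE 0.36, adjusted p = 0.0137). Col5a3 was 2.55-fold lower (log2 -1.35, SE 0.17, adjusted p = 1.93e-05), at 2.56, 3.13 and 2.20 against 5.70, 7.80 and 6.60 CPM. Again neither gene's portions overlapped. Col8a1 stood at 145, 152 and 135 against 305, 340.4 and 361 CPM, 2.33-fold lower (log2 -1.22, SE 0.11, adjusted p = 2.82e-07). Col11a1 stood at 199, 202 and 223 against 347, 506 and 453 CPM, 2.09-fold lower (log2 -1.07, SE 0.11, adjusted p = 1.40e-06). Both were again without overlap. Col6a4, a type VI chain, was 2.76-fold higher anteriorly (log2 1.46, SE 0.22, adjusted p = 0.000102), at 6.78, 10.6 and 7.08 against 2.77, 3.00 and 3.08 CPM.

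The chains of types I and III were less uniform under tamoxifen. Col1a1 stood at 3135, 1867 and 4253 CPM anteriorly and at 4546, 8270.0 and 9288 CPM posteriorly, 2.39-fold lower (log2 -1.26, SE 0.31, adjusted p = 0.0206). The lowest posterior library lay just above the highest anterior one. Col1a2 stood at 3415, 3051 and 3827 against 3670.0, 4921 and 5374 CPM, 1.36-fold lower with overlap (log2 -0.44, SE 0.12, adjusted p = 0.0157). Col3a1 stood at 3662, 3519.7 and 3916 against 4165, 5142 and 5438 CPM, 1.33-fold lower without overlap (log2 -0.41, SE 0.10, adjusted p = 0.00681). Of the type IV chains, Col4a1 stood at 896.5, 872 and 910.4 against 821, 1009.9 and 1051 CPM (log2 -0.11, SE 0.08, adjusted p = 0.447). Col4a2 stood at 689, 672 and 694 against 603, 817 and 858 CPM (log2 -0.15, SE 0.10, adjusted p = 0.367). Neither passed the test, and both overlapped between the portions. Of the 21 calls, 7 were lost without 1 of the libraries (Col1a1, Col1a2, Col3a1, Col12a1, Col6a3, Col7a1 and Col26a1), each under 1 to 3 of the 12 omissions, with adjusted p from 0.0515 to 0.107. The count of lower genes ranged from 13 without tamoxifen posterior replicate 3 to 20 without tamoxifen posterior replicate 1. The fit of the 2 tamoxifen groups alone also ended the calls of Col1a1 (adjusted p = 0.0702), Col1a2 (0.0752), Col12a1 (0.0541) and Col7a1 (0.0625). Skeletal muscle markers gave 0 higher and 11 lower of 11, cartilage markers 0 and 7 of 10 and epithelial markers 9 and 0 of 12 here, and their part in these differences was not tested. Over all genes 7.60% were higher and 10.2% lower in this comparison. The 2 regional comparisons share no libraries.

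The tamoxifen comparison in the anterior portion asked which collagens differed after treatment, and it shares its control libraries with the regional comparison in controls. Of the 37 genes, 12 were higher and 5 lower, where 25.6% of all genes were higher and 24.0% lower (49.7% called). The 17 of 37 collagen genes called lay near that share, so the count does not set them apart from other genes. The median log2 fold change, tamoxifen minus control, was 0.12 over the collagen genes and -0.02 over all genes. By class, 4 fibrillar genes were higher and 1 lower of 9, 3 basement membrane genes higher and 0 lower of 5, 1 FACIT higher and 1 lower of 6, and 4 others higher and 3 lower of 17. After removal of the length and GC trend, 9 genes were higher and 1 was lower, where 32.0% of all genes were called. The collagen share was again not above that of all genes. After that removal no fibrillar gene passed (0 higher and 0 lower), whereas 3 basement membrane genes (Col4a1, Col4a2 and Col4a5), the FACIT Col14a1 and 5 others (Col6a6, Col8a1, Col15a1, Col17a1 and Col25a1) were higher. Of these 9 genes, Col4a2 and Col15a1 had not passed before the removal (adjusted p = 0.218 and 0.172).

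Markers of other cell types were counted in the same comparison, where 25.6% of all genes were higher and 24.0% lower (49.7% called). The endothelial and palatal mesenchyme lists lay above that share of called genes, and the other lists lay near or below it. Endothelial markers gave 5 higher and 3 lower of 10, with a sum of 593 to 665 CPM after tamoxifen against 569.9 to 630.4 CPM in controls. Epithelial markers gave 5 and 1 of 12 (1014 to 1266 against 1019 to 1268 CPM) and skeletal muscle markers 0 and 5 of 11 (9.34 to 17.6 against 13.0 to 35.1 CPM). The counts were 4 and 2 of 12 for neuron and Schwann cell, 3 and 1 of 11 for macrophage, 3 and 1 of 10 for cartilage, 2 and 2 of 10 for smooth muscle and pericyte, 2 and 0 of 9 for bone and 3 and 4 of 10 for palatal mesenchyme markers. Trp63, a transcription factor of basal epithelium, stood at 48.0, 57.9 and 48.6 CPM in controls and 87.2, 88.3 and 74.0 CPM under tamoxifen. The endothelial gene Pecam1 stood at 62.5, 74.9 and 72.4 against 88.6, 81.0 and 87.1 CPM, and Cdh5, the cadherin of endothelial junctions, at 137, 142 and 133 against 182, 158 and 184 CPM. None of these 3 markers overlapped between treatments, but they were picked after their values were seen. Several other members of these lists had lower group means under tamoxifen. From control to tamoxifen, Krt5 went from 253 to 192 CPM and Krt14 from 332 to 272 CPM. Of the endothelial markers, Tie1 went from 104 to 80.3, Eng from 77.6 to 57.4, Cldn5 from 47.5 to 34.9 and Esam from 34.7 to 25.3 CPM. The part of these markers in the collagen differences was not tested.

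Col25a1 and Col4a5 rose most. Col4a5 stood at 25.4, 28.0 and 25.9 CPM in the control and 53.5, 56.3 and 52.8 CPM in the tamoxifen anterior libraries, 2.05-fold higher (log2 1.03, SE 0.09, adjusted p = 1.12e-06). Col25a1 stood at 31.7, 27.2 and 21.6 against 56.9, 68.1 and 46.8 CPM, 2.13-fold higher (log2 1.09, SE 0.13, adjusted p = 1.43e-05). In both genes every tamoxifen library lay above every control library. The removal of the length and GC trend left log2 fold changes of 0.70 for Col4a5 (adjusted p = 1.98e-05) and 0.49 for Col25a1 (adjusted p = 0.00231). Col4a6, the other chain of the X-linked pair, stood at 10.3, 9.55 and 10.5 against 15.0, 12.4 and 16.3 CPM, 1.44-fold higher (log2 0.53, SE 0.13, adjusted p = 0.00334), which became 0.30 (adjusted p = 0.0744) without the trend.

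Col14a1, a FACIT of tendon and skin, stood at 72.1, 73.1 and 64.2 CPM in controls and 139.6, 104 and 110.02 CPM under tamoxifen, 1.69-fold higher (log2 0.76, SE 0.11, adjusted p = 4.06e-05). Col8a1 stood at 104, 75.1 and 78.7 against 145, 152 and 135 CPM, 1.68-fold higher (log2 0.75, SE 0.11, adjusted p = 4.03e-05). Col6a6 stood at 4.26, 4.62 and 3.82 against 6.88, 7.34 and 6.99 CPM, 1.67-fold higher (log2 0.74, SE 0.12, adjusted p = 0.000135). None of these 3 genes overlapped between treatments, but they were named because they passed the test on these same libraries. All 3 also passed the test with the trend removed, at log2 0.34, 0.34 and 0.32. Among fibrillar genes, Col11a1 stood at 135, 137 and 121 against 199, 202 and 223 CPM, 1.58-fold higher (log2 0.66, SE 0.11, adjusted p = 0.000116). Col5a2 stood at 571, 529 and 514 against 746, 727 and 858 CPM, 1.44-fold higher (log2 0.53, SE 0.09, adjusted p = 0.000258). Neither overlapped between treatments, yet with the trend removed they gave log2 0.07 (adjusted p = 0.654) and 0.09 (adjusted p = 0.431).

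Of the abundant chains, Col3a1 rose 1.21-fold, from 3165, 2951 and 3021 to 3662, 3519.7 and 3916 CPM (log2 0.28, SE 0.10, adjusted p = 0.0263, and log2 0.09 with adjusted p = 0.449 without the trend). Col4a1 rose 1.17-fold, from 729.9, 776 and 786 to 896.5, 872 and 910.4 CPM (log2 0.23, SE 0.08, adjusted p = 0.0352, and 0.26 with adjusted p = 0.00392 without the trend). Neither gene overlapped between treatments. Col1a1 (log2 -0.31, SE 0.31, adjusted p = 0.439), Col1a2 (log2 0.09, SE 0.12, adjusted p = 0.544) and Col4a2 (log2 0.16, SE 0.10, adjusted p = 0.218) did not pass the test. Without the trend, Col4a2 passed at log2 0.39 (adjusted p = 0.000889). Col17a1 and Col24a1 were 1.37-fold and 1.30-fold higher, both with overlap between treatments. The 5 lower genes were Col5a3 (1.53-fold), Col16a1 (1.38-fold), Col6a2 (1.37-fold), Col7a1 (1.32-fold) and Col26a1 (1.26-fold), each without overlap. Of these, Col6a2 alone passed the test with the trend removed, at log2 -0.44 (adjusted p = 0.0130), and Col26a1 turned to 0.15 (adjusted p = 0.0618). Without 1 of the libraries, 7 of the 17 calls were lost (Col3a1, Col24a1, Col4a1, Col16a1, Col6a2, Col17a1 and Col26a1), each under 2 to 9 of the 12 omissions, with adjusted p from 0.0512 to 0.276. Col4a5, Col14a1, Col6a6, Col8a1 and Col25a1 held under all alternatives, 5 of 17.

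**Figure D3:**
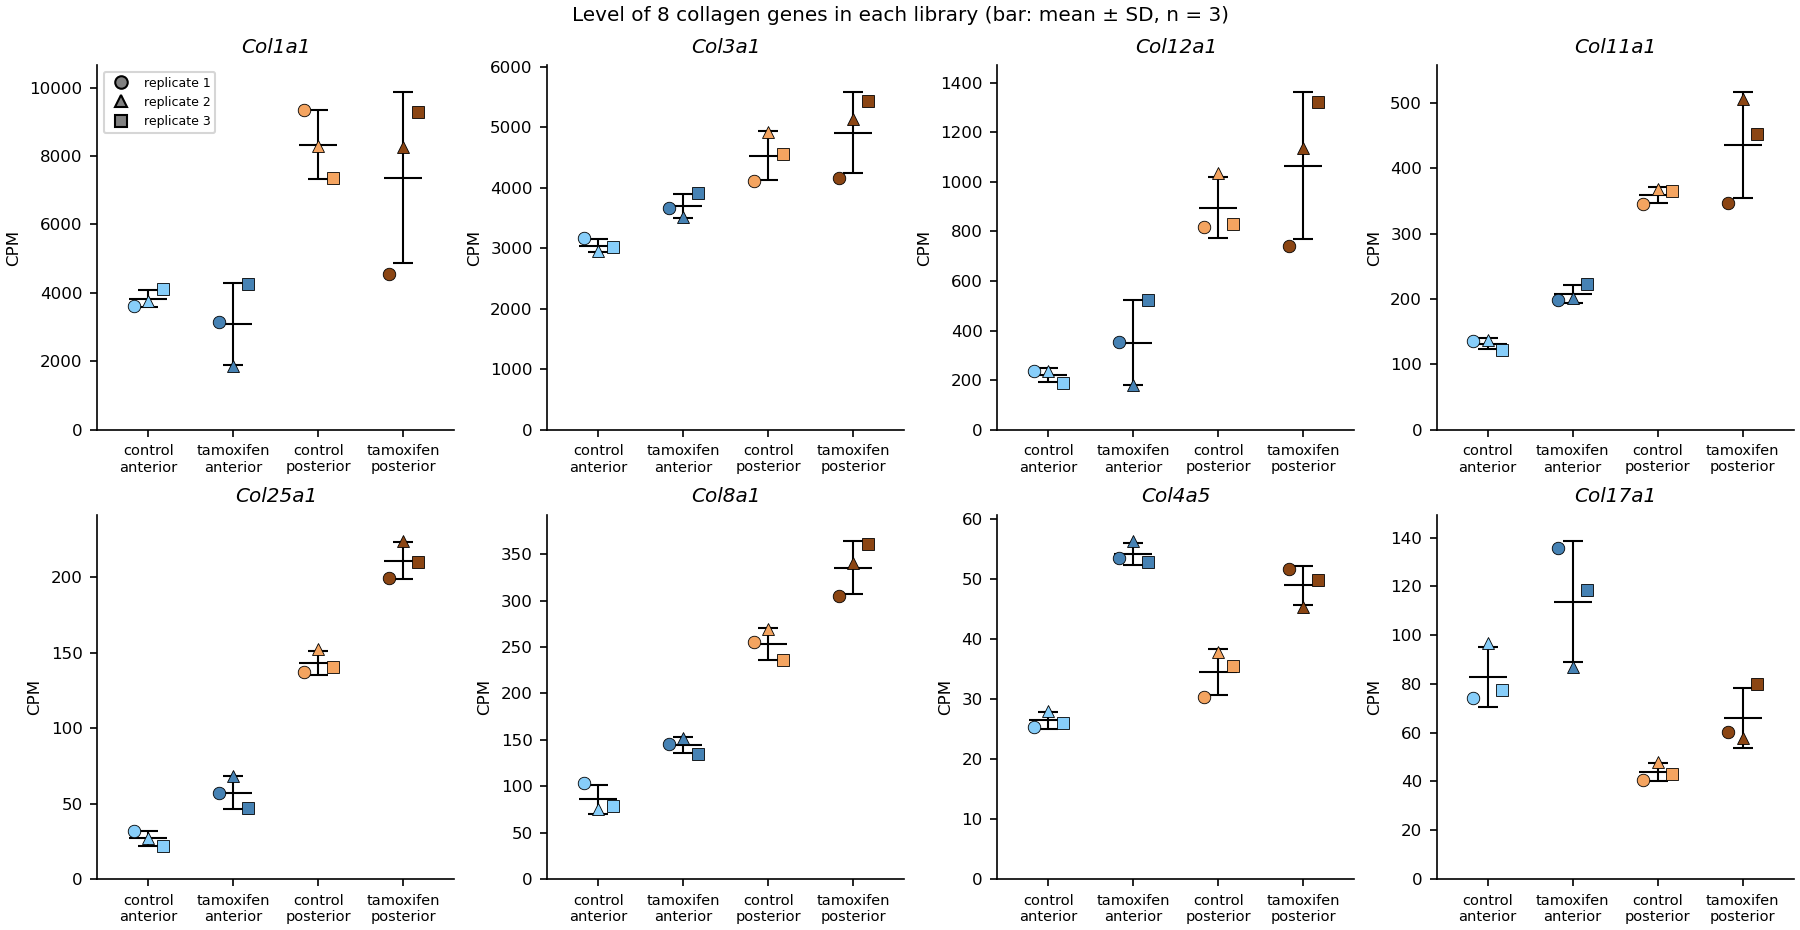
Level in CPM (vertical axes, from 0) of 8 collagen genes in each library of the 4 groups (horizontal axes). Points are libraries and bars the mean ± SD (n = 3), and Col4a5 and Col25a1 are higher in every tamoxifen than in every control library of the same portion.

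In the posterior portion 8 collagen genes were higher and 0 lower after tamoxifen, where 17.3% of all genes were higher and 11.7% lower (29.0% called). The test with the trend removed gave 4 higher and 0 lower, against 17.3% of all genes called in either direction. By class, 1 fibrillar gene, 2 basement membrane genes, 1 FACIT and 4 others were higher. The median log2 fold change was 0.12 over the collagen genes and 0.02 over all genes. Col4a5 stood at 30.3, 37.8 and 35.5 CPM in the control and 51.6, 45.4 and 49.9 CPM in the tamoxifen posterior libraries, 1.42-fold higher (log2 0.50, SE 0.09, adjusted p = 0.000994). Col4a6 stood at 5.43, 7.23 and 7.36 against 8.77, 9.38 and 9.77 CPM, 1.39-fold higher (log2 0.48, SE 0.14, adjusted p = 0.0155). Col17a1 stood at 40.7, 47.8 and 43.0 against 60.4, 57.8 and 80.2 CPM, 1.51-fold higher (log2 0.59, SE 0.16, adjusted p = 0.0164). In these 3 genes the treatments did not overlap.

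Col25a1 stood at 137, 152 and 140.3 against 199, 224 and 209.98 CPM, 1.47-fold higher (log2 0.56, SE 0.13, adjusted p = 0.00588). Col8a1 stood at 255, 269 and 236 against 305, 340.4 and 361 CPM, 1.32-fold higher (log2 0.41, SE 0.11, adjusted p = 0.0102). Col6a6 stood at 10.1, 12.2 and 11.4 against 14.2, 15.9 and 13.9 CPM, 1.30-fold higher (log2 0.38, SE 0.11, adjusted p = 0.0203). The treatments did not overlap in these 3 genes. Col5a2 stood at 636, 726 and 633 against 711, 859.9 and 878 CPM, 1.23-fold higher with overlap (log2 0.30, SE 0.09, adjusted p = 0.0277). Col19a1 gave 28 to 51 counts per control and 70 to 166 counts per tamoxifen library, 3.02-fold higher (log2 1.59, SE 0.36, adjusted p = 0.00480). The removal of the trend left Col19a1 (log2 1.35, adjusted p = 0.0162), Col17a1 (log2 0.61, adjusted p = 0.0278) and Col4a5 (log2 0.31, adjusted p = 0.0200) past the test and added Col18a1 (log2 0.30, adjusted p = 0.0457). Col1a1, Col1a2, Col3a1, Col4a1 and Col4a2 did not pass, with log2 fold changes from -0.18 to 0.12 and adjusted p from 0.389 to 0.920. Without 1 of the libraries, 5 of the 8 calls were lost (Col5a2, Col4a6, Col6a6, Col8a1 and Col17a1), each under 1 to 6 of the 12 omissions, with adjusted p from 0.0502 to 0.111. Without control posterior replicate 1 or 3, 4 genes were called higher, and Col4a5 and Col19a1 held under all alternatives. In the same comparison 6 of 12 epithelial and 2 of 11 skeletal muscle markers were higher and 0 lower, with the muscle sum at 955 to 1295 CPM and the epithelial sum at 666 to 868 CPM under tamoxifen. Endothelial markers gave 5 higher and 1 lower of 10 (677 to 736 against 611 to 653 CPM in controls). Smooth muscle and pericyte markers gave 4 and 0 of 10 (605 to 689 against 548 to 576 CPM), with a median log2 fold change of 0.43, and neuron and Schwann cell markers 4 and 0 of 12 (175 to 230.4 against 147 to 159.8 CPM). The counts were 3 and 0 of 10 for cartilage, 2 and 0 of 11 for macrophage, 1 and 0 of 9 for bone and 2 and 2 of 10 for palatal mesenchyme markers. Over all genes 17.3% were higher and 11.7% lower in this comparison (29.0% called). The part of these markers in the collagen rises was not tested.

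The difference between the tamoxifen effects in the 2 portions was tested in the same model. It called 0 of 37 collagen genes and 0 of all genes (0% called, edgeR quasi-likelihood test), with 6 collagen genes and 2110 genes at an unadjusted p under 0.05. DESeq2 called 179 genes, of which Col4a5 was the only collagen gene (adjusted p = 0.0115), and limma-voom called 0. In the edgeR test Col4a5 gave 0.53 (SE 0.12, adjusted p = 0.183), Col25a1 0.54 (SE 0.18, adjusted p = 0.294) and Col14a1 0.54 (SE 0.15, adjusted p = 0.224) as differences of log2 fold changes, anterior minus posterior. Col1a1, Col1a2, Col3a1, Col4a1 and Col4a2 gave -0.13 to 0.16, with adjusted p from 0.618 to 0.918.

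The tamoxifen differences of the collagen genes ran with base composition. Over the 37 genes, the Spearman correlation of the log2 fold change with the GC content of the longest transcript was -0.74 anteriorly and -0.69 posteriorly. Over all 15847 genes with a value it was -0.52 and -0.41. These correlations are across genes, which are not independent replicates and share the libraries, so no p is given. Collagen transcripts were GC-rich and long, with a median GC of 55.1% (45.9 to 61.6%) and a median length of 6450 bases against 50.0% and 3310 bases over all genes tested. Of the 5 genes lowest in GC, Col25a1 (45.9%), Col8a1 (46.8%) and Col11a1 (48.0%) rose anteriorly. The other two, Col19a1 (47.3%) and Col12a1 (48.3%), did not pass the test there (log2 0.12, adjusted p = 0.889, and log2 0.67, adjusted p = 0.148). Of the 5 genes highest in GC, Col5a3 and Col7a1 (61.6% each) and Col16a1 (61.4%) fell anteriorly. Col18a1 (60.8%) and Col4a2 (60.6%) did not pass the test there (log2 -0.08, adjusted p = 0.516, and log2 0.16, adjusted p = 0.218). After removal of the trend the correlations over the collagen genes were -0.18 and -0.19. In the regional comparison of controls the correlation was 0.47, and 0.40 after removal.

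**Figure D4:**
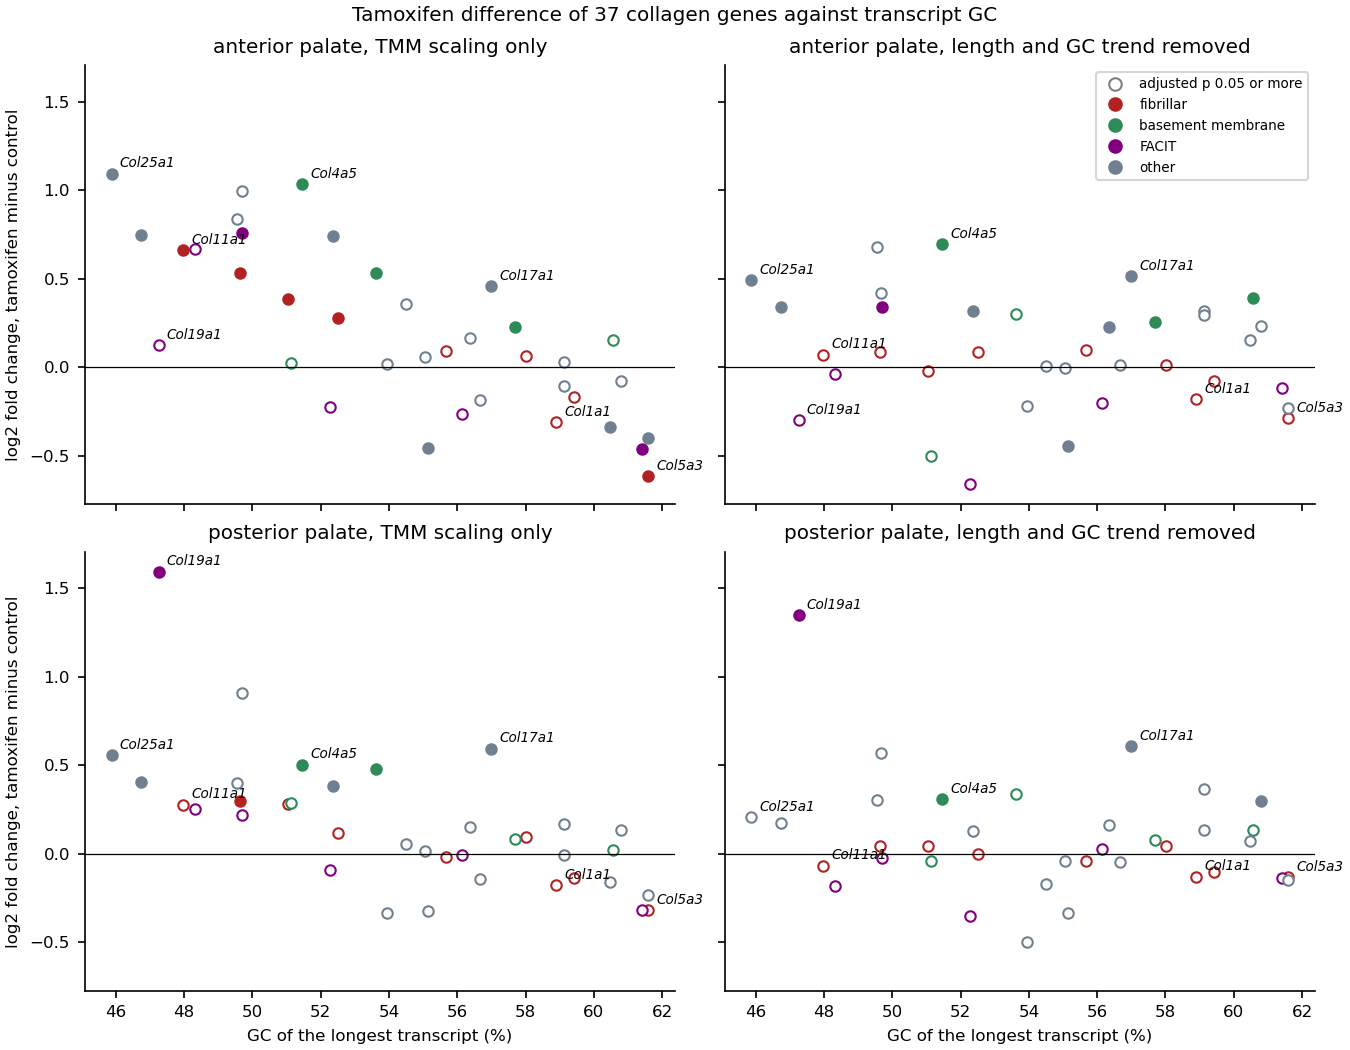
Log2 fold change, tamoxifen minus control (vertical axes), against the GC content of the longest transcript in percent (horizontal axes) for 37 collagen genes, coloured by class, in each portion. Open symbols have an adjusted p of 0.05 or more, and the downward slope with TMM scaling (left) is mostly gone with the length and GC trend removed (right).

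Collagen levels varied more between the tamoxifen libraries than between the controls. The 33 collagen genes with a mean of at least 5 CPM over all 12 libraries were used. Their median coefficient of variation was 6.89% in the control anterior and 7.43% in the control posterior group. It was 15.1% in the tamoxifen anterior and 14.5% in the tamoxifen posterior group. Over all 11507 genes of that level it was 7.83%, 5.92%, 7.93% and 6.54% in the same order. In each tamoxifen group 1 library was the lowest in most of these genes, and another was the highest in most. Tamoxifen anterior replicate 2 was the lowest of its group in 25 of the 33 genes, 75.8%, against 39.8% of all genes. Tamoxifen posterior replicate 1 was the lowest in 28 of 33, 84.8%, against 42.2%. Col1a1 stood at 1867 CPM in the former, with 3135 and 4253 in the other libraries of its group, and at 4546 CPM in the latter, with 8270.0 and 9288. Tamoxifen anterior replicate 3 was the highest of its group in 22 of the 33 genes, and tamoxifen posterior replicate 3 in 24. The share of all genes in which these libraries were highest was not computed. Col12a1 had the widest spread of the set, 48.6% in the tamoxifen anterior group. It stood there at 354, 179.9 and 521 CPM, against 236, 236 and 190.0 CPM in the control anterior libraries.

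Genes of bone formation were low in the same 2 libraries. Sp7, a transcription factor of osteoblasts, stood at 67.4, 23.9 and 119 CPM in the tamoxifen anterior libraries and 34.3, 51.6 and 74.3 CPM in the tamoxifen posterior ones. Ibsp, a bone matrix protein, stood at 7.41, 0.358 and 44.7 CPM and at 5.84, 7.63 and 37.6 CPM. In controls Sp7 ranged from 63.2 to 126 CPM and Ibsp from 26.9 to 80.5 CPM over both portions. The 10 bone markers as a list summed to 757, 613 and 976 CPM in the tamoxifen anterior and 372, 466 and 575 CPM in the tamoxifen posterior libraries. Their part in the collagen spread was not tested. Without tamoxifen anterior replicate 2, 13 collagen genes were called higher and 2 lower in the anterior tamoxifen comparison. The share of all genes called in that fit is not given.

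Ratios between chains of one collagen type showed how the partners shifted. Col1a1 to Col1a2, which combine in type I collagen, was 1.07 ± 0.07 per length in the control anterior, 1.59 ± 0.10 in the control posterior, 0.794 ± 0.23 in the tamoxifen anterior and 1.40 ± 0.24 in the tamoxifen posterior group. Every control posterior library lay above every control anterior one, while the tamoxifen ratios overlapped those of the controls of the same portion. Col3a1 to Col1a1 was 0.851 ± 0.07, 0.587 ± 0.10, 1.41 ± 0.53 and 0.754 ± 0.19 in the same order. Col4a1 to Col4a2, the pair with overlapping starts, kept within 1.18 to 1.27 in the means of all 4 groups before removal of the length and GC trend. The X-linked pair did not keep a fixed ratio: Col4a5 to Col4a6 was 2.67 ± 0.27, 5.30 ± 0.38, 3.84 ± 0.68 and 5.37 ± 0.55. Its anterior control libraries all lay below its posterior ones. Col6a3 to Col6a2 was 0.196 ± 0.03, 0.396 ± 0.05, 0.341 ± 0.01 and 0.508 ± 0.06, and the tamoxifen anterior libraries all lay above the control anterior ones. Col6a1 to Col6a2 was 0.848 ± 0.03, 0.865 ± 0.04, 1.03 ± 0.07 and 0.986 ± 0.04, and in both portions every tamoxifen library lay above every control library. Col5a1 to Col5a2 was 1.52 ± 0.20, 1.88 ± 0.16, 1.09 ± 0.10 and 1.62 ± 0.19, with all tamoxifen anterior libraries below the control anterior ones. The short-chain pair Col8a1 to Col8a2 was 0.339 ± 0.06, 0.722 ± 0.07, 0.597 ± 0.22 and 0.965 ± 0.06. With the length and GC trend removed, the anterior means of Col5a1 to Col5a2 lay closer together, at 1.37 ± 0.12 in controls and 1.30 ± 0.03 under tamoxifen, as did those of Col8a1 to Col8a2, at 0.424 ± 0.04 and 0.447 ± 0.11. Those of Col6a1 to Col6a2 (0.788 ± 0.05 and 1.084 ± 0.09), Col6a3 to Col6a2 (0.225 ± 0.02 and 0.306 ± 0.02) and Col4a5 to Col4a6 (2.74 ± 0.27 and 3.63 ± 0.57) stayed apart by more than 1 SD. The anterior means of Col4a1 to Col4a2 were then 1.308 ± 0.045 in controls and 1.196 ± 0.035 under tamoxifen, also apart by more than 1 SD. No test was made of a ratio.

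**Figure D5:**
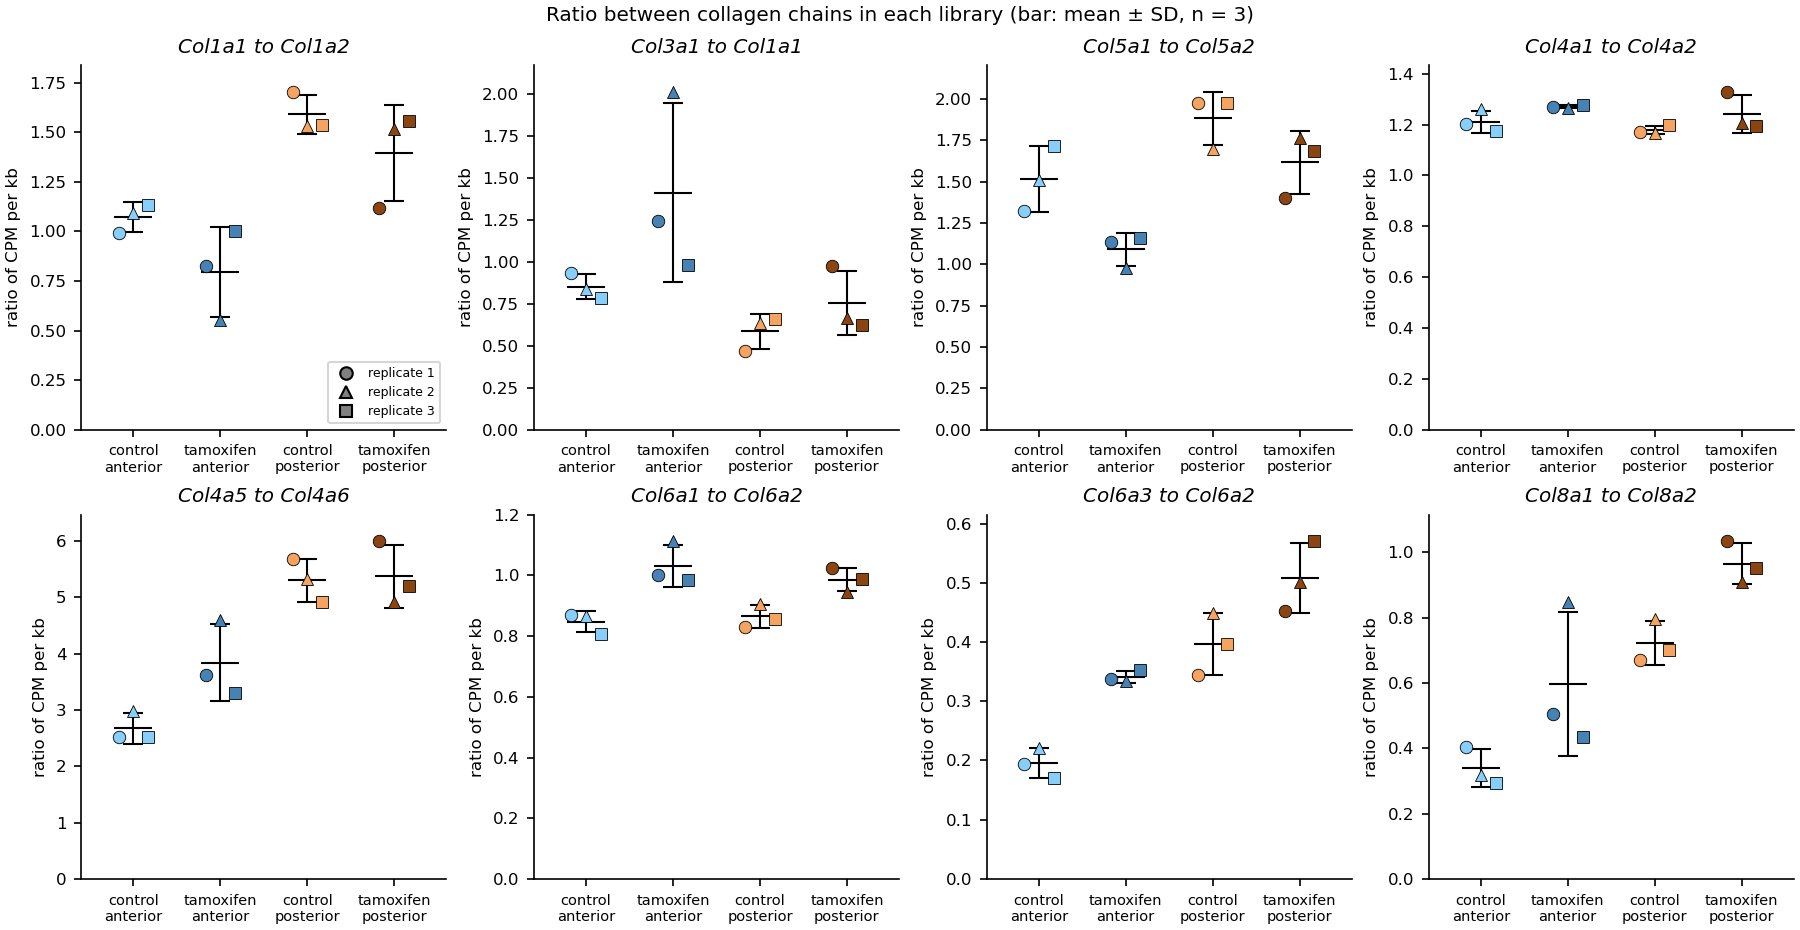
Ratio of CPM per kb between collagen chains (vertical axes, from 0) in each library of the 4 groups (horizontal axes). Points are libraries and bars the mean ± SD (n = 3), without removal of the length and GC trend. Group means lay between 1.18 and 1.27 for Col4a1 to Col4a2 and between 2.67 and 5.37 for Col4a5 to Col4a6.

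Genes that make and modify collagen were counted in the same tests. Of 18 genes of collagen folding and modification, 1 was higher and 11 lower in the anterior than in the posterior controls, and of 16 fibril-associated matrix genes 1 was higher and 9 lower, where 10.2% of all genes were higher and 13.1% lower. Of 13 genes of processing and crosslinking, 1 was higher and 5 lower. Lox, the lysyl oxidase that crosslinks fibrils, stood at 62.2 CPM anteriorly and 253 CPM posteriorly in group means, 4.07-fold lower anteriorly (adjusted p = 3.29e-06). Tgfbi, a matrix protein that binds collagen, was 2.27-fold lower (adjusted p = 3.35e-09). The 12 basement membrane partners gave 1 higher and 3 lower, among them Lama5, a laminin chain, 1.57-fold higher (adjusted p = 0.000677). The 9 collagen receptors gave 0 higher and 1 lower, near the share of all genes, and that gene was Itgb1, 1.19-fold lower (adjusted p = 0.0307). Under tamoxifen the counts of higher and lower genes in this regional comparison were 1 and 10 for folding, 0 and 10 for fibril-associated matrix, 1 and 6 for processing, 1 and 2 for basement membrane partners and 0 and 1 for receptors, where 7.60% of all genes were higher and 10.2% lower.

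After tamoxifen in the anterior portion, folding genes gave 4 higher and 5 lower, processing genes 4 and 2, receptors 4 and 1 of 9, fibril-associated matrix 9 and 1 of 16, and basement membrane partners 6 and 1 of 12. Of all genes 25.6% were higher and 24.0% lower here (49.7% called), and the 9 of 18 folding and 6 of 13 processing genes called lay near that share. Ddr2, a receptor tyrosine kinase that binds fibrillar collagen, rose 1.70-fold (adjusted p = 1.97e-05), and Nid1, the nidogen that links laminin to type IV collagen, rose 1.66-fold (adjusted p = 1.30e-05). Bmp1, the protease that removes the C-terminal propeptide of fibrillar collagens, fell 1.44-fold (adjusted p = 9.66e-05). With the trend removed the counts were 5 and 0, 3 and 2, 3 and 0, 5 and 0, and 3 and 1, where 32.0% of all genes were called. In the posterior portion they were 5 and 1 for folding, 5 and 1 for processing, 4 and 0 for receptors, 4 and 0 for fibril-associated matrix and 5 and 0 for basement membrane partners, where 17.3% of all genes were higher and 11.7% lower (29.0% called). Itga1, the chain of the integrin that binds type IV collagen, was 1.92-fold higher posteriorly after tamoxifen (adjusted p = 0.000343), and Lox 1.82-fold (adjusted p = 0.00391).

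At the other end of the range, Col4a3, Col4a4, Col6a5, Col10a1, Col19a1 and Col28a1 had group means under 3 CPM throughout. Col10a1, the marker of hypertrophic cartilage, gave 0 to 10 counts per library, and Col4a4, the partner of Col4a3 in the glomerular and inner ear basement membrane, 4 to 18 counts. Among exons, Col4a1 and Col4a2 overlap on opposite strands by 22 bases, and 36 bases of Col7a1 are shared with Mir711. The strand setting of the counting is not stated, so reads from such overlaps could not be assigned.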

How the data were processed

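Palatal shelf RNA was measured in 12 libraries, 3 for each of 4 groups taken from the labels. The authors deposited 1 table per library with raw counts per gene symbol, not normalized, and per the submitters' processing notes HISAT2, StringTie and the genome build mm9 were used. The sources used here do not give versions, the counting program, the annotation, the strand setting or read filters. Counts were fitted with edgeR 4.0.16 (R 4.3.3): filterByExpr by group, TMM scaling, and robust quasi-likelihood tests in 1 model of the 4 group means (12 libraries, residual degrees of freedom 8). A gene was called when its p, adjusted by Benjamini-Hochberg across the 15958 tested, was under 0.05. An exact test of 3 against 3 libraries cannot go below p = 0.1, so single levels carry no test of their own. Overlap between groups was stated mostly for genes that had passed the test on the same libraries, so it is a description and no further support. The share of all genes without overlap is not given. Length and GC were taken from each symbol's longest transcript in GENCODE M21 (23348 symbols matched directly, 670 by an older symbol), and promoters from RefSeq on GRCm38.p6, a newer build than mm9, so no coordinate of the deposited files was used. The length and GC trend was a spline surface (4 degrees of freedom each) per library over genes with a mean log2 CPM above 1, used as an offset. Alternatives were DESeq2 1.42.0, limma-voom (limma 3.58.1), other scalings and filters, the 2 groups alone, the replicate number as a block, the trend removed, and leaving out each library. For comparisons of 2 groups, the share of all genes called is given only for the main fit and the fit with the trend removed. Counts under the other alternatives show only how far the calls moved. The fits were tested on simulated data. Per-library values and full statistics are given for the 8 called genes of at least 5 CPM with the largest fold changes per comparison, and for Col1a1, Col1a2, Col3a1, Col4a1 and Col4a2, and of each partner list up to 2 genes with the smallest adjusted p. Where these 5 genes missed the threshold, library values printed in another comparison were not repeated and statistics could be given as a range. Genes named beyond this were chosen after their values were seen. The genes and lists were chosen with earlier results of these data known. No 2 libraries of a group were as close as counting noise would allow (the lowest chi-square divided by its degrees of freedom was 10.3), so each counts once. Figures were drawn with matplotlib.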

Additional observations from a re-analysis of the deposited data

How the results depend on the processing

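Alternatives most changed the tamoxifen counts. With the length and GC trend removed, the anterior count of lower genes fell from 5 to 1 (2 with the replicate block added) and the posterior count of higher genes from 8 to 4 (3 with the block). Leaving out single libraries gave 2 to 5 lower genes anteriorly, 4 to 8 higher and 0 to 1 lower genes posteriorly, and the 2 groups alone gave 1 lower gene posteriorly. DESeq2 called 1 collagen gene for the difference of the tamoxifen effects, against 0. Of 18 pairs of libraries with the same replicate number, 2 correlated above 0.1 in their deviations from the group means (-0.058 to 0.147). Both paired the tamoxifen anterior with the tamoxifen posterior portion, at 0.147 for replicate 1 and 0.137 for replicate 3. Pairs of unlike number were not compared, so this cannot exclude that portions came from the same embryos or litters. With the replicate block, 11 genes were higher and 5 lower after tamoxifen anteriorly, 8 and 0 posteriorly, and 5 and 22 (controls) and 4 and 17 (tamoxifen) in the regional comparisons. The share of all genes called is not given for the block or for the omissions of single libraries. With the trend removed, log2 fold changes that changed sign were, anteriorly after tamoxifen, Col24a1 at -0.019 (-0.031 with the block) and Col26a1 at 0.152 (0.152 with the block). Posteriorly Col3a1 turned to -0.0045 (-0.0063 with the block), and between the tamoxifen portions Col4a1 turned to 0.0696 (0.0695 with the block) and Col4a2 to 0.0483 (0.0478 with the block). Near 0 and not called, the posterior tamoxifen value of Col4a2 turned to -0.0005805 with a filter at a mean of 1 CPM. When single libraries were left out, it lay between -0.0762 and 0.145, that of Col1a1 between -0.379 and 0.0585 and that of Col1a2 between -0.135 and 0.109. In the difference of the effects these omissions gave -0.413 to 0.157 for Col1a1 and -0.00898 to 0.229 for Col1a2. Removing the trend moved chain ratios beyond their SD: Col5a1 to Col5a2 to 1.67 (control posterior) and 1.304 (tamoxifen anterior), Col6a1 to Col6a2 to 0.788 (control anterior) and 1.035 (tamoxifen posterior), Col6a3 to Col6a2 to 0.225 (control anterior) and 0.306 (tamoxifen anterior). Col4a1 to Col4a2 moved to 1.308 (control anterior), 1.225 (control posterior) and 1.196 (tamoxifen anterior), Col8a1 to Col8a2 to 0.424 (control anterior), 0.838 (control posterior) and 0.860 (tamoxifen posterior), and Col3a1 to Col1a1 to 0.938 (control anterior). The cause of these changes was not tested. The ratio of Col4a3 to Col4a4 was not computed, since both had at most 18 counts per library.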
